A study of Mus musculus with 6 samples.

Results

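Expression of 8 genes that mark enteric glia and Schwann cells was compared between EGFP-Negative and EGFP-Positive cells of the inflamed mouse colon. The genes were *Sox10*, *S100b*, *Gfap*, *Gfra3*, *Cdh19*, *Kcna1*, *Fabp7* and *L1cam*, taken by symbol from the 20327 gene symbols in the files, and all 8 were found. Enteric glia are the supporting cells of the gut's own nervous system. They lie around neurons in the ganglia and along nerve fibres in the muscle and the mucosa. Schwann cells ensheathe the axons of peripheral nerves, including the extrinsic nerves that reach the gut. Both descend from the neural crest, depend on the transcription factor SOX10 and share much of their gene expression, so that these genes do not separate the 2 cell types.

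All 6 libraries came from C57BL/6 mice of 9 to 15 weeks of age with the *Il11-Egfp* reporter, a bacterial artificial chromosome in which *Egfp* reports *Il11*. The mice had been given 1.5% dextran sodium sulfate (DSS), which injures the colonic epithelium, in drinking water for 5 days, and the colon was taken on day 7. DAPI-negative cells without Ter119, CD45, CD31 and EpCAM, that is, depleted of erythroid, hematopoietic, endothelial and epithelial cells, were sorted into EGFP-Negative and EGFP-Positive cells (n = 3 libraries each, from 3 mice). RNA was read by 5′Tag-seq, in which each tag stands for the 5′ side of a transcript. No antibody against a glial or muscle protein was part of the gate, so the EGFP-Negative cells are a mixture of everything the depletion left, and EGFP reports activity of the transgene rather than IL-11 protein. The methods also describe the EGFP-Positive cells as not fully pure. Untreated mice were not part of the comparison.

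The tags summed to 1057170, 1078179 and 1169817 in EGFP-Negative replicates 1, 2 and 3, and to 1046538, 1022851 and 1049048 in EGFP-Positive replicates 1, 2 and 3. At this depth, 3 tags, taken as the floor, stood at 2.56 to 2.93 CPM (tags per 1000000 tags of the library) in a library. Over the pooled EGFP-Positive libraries (3118437 tags), a gene with 0 tags can have stood at up to 0.962 CPM. Limits on a fold set the pooled EGFP-Negative level against this floor and leave out the counting error of the EGFP-Negative tags. Intervals and floors cover counting error only: tags were amplified by PCR without molecular identifiers, and copies of 1 molecule count more than once. As a check of the sort, *Il11* had 28, 51 and 89 tags in EGFP-Negative and 1357, 732 and 2658 tags in EGFP-Positive replicates 1, 2 and 3. The groups were far apart, and the log2 fold change, EGFP-Positive over EGFP-Negative, was 4.98 (SE 0.393, adjusted p = 1.01e-07 in edgeR's quasi-likelihood test).

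The glial genes were seen almost only in EGFP-Negative cells. Together they had 73, 59 and 107 tags in EGFP-Negative and 3, 1 and 6 tags in EGFP-Positive replicates 1, 2 and 3. Pooled, 239 tags stood against 10, so that EGFP-Positive cells held 4.43% of the EGFP-Negative level in CPM (95% interval 2.1 to 8.3%, exact binomial). Without EGFP-Positive replicate 3, which held 6 of the 10 tags, the share was 2.67%, and without any other single library it was 3.97 to 5.94%. *Sox10*, *S100b*, *Gfra3*, *Fabp7* and *L1cam* had 0 tags in every EGFP-Positive library, and the 10 tags there belonged to *Gfap*, *Cdh19* and *Kcna1*. *Gfra3* and *Fabp7* had only 4 and 2 tags in the pooled EGFP-Negative libraries, so their 0 shows no difference. For 7 of the 8 genes every EGFP-Negative library lay above every EGFP-Positive library, *Fabp7* being the exception; over all 20327 symbols this held for 2303, or 11.3%. Because RNA of many cells was pooled, fewer glial cells and less glial RNA per cell cannot be told apart.

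Low depth limited the tests. The test took in genes that reached 10 tags in 3 or more of the 6 libraries, and a call needed an adjusted p below 0.05 together with a more than 2-fold difference. Only *Gfap* of the 8 genes passed that filter, and it was called lower in EGFP-Positive cells; 595 of the 9334 tested genes, or 6.37%, were called lower. With at least 5 tags, *Cdh19* and *Kcna1* also passed and all 3 tested genes were called lower, against 704 of 11279 genes or 6.24%. With no filter *S100b* and *L1cam* were called too, giving 5 of 8 genes against 767 of 20327 or 3.77%, and 4 of 8 when replicate numbers entered the fit as a block. Such sparse genes passed a filter only through the group in which they were high, so these counts describe the genes and lend no support to a difference.

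*Sox10* encodes the transcription factor that specifies glia from the neural crest and maintains them. It had 2, 3 and 5 tags in EGFP-Negative replicates 1, 2 and 3 and 0 tags in each EGFP-Positive library. The groups did not overlap, but the highest library held only 5 tags. Against the floor of 3 tags over the pooled EGFP-Positive libraries, *Sox10* was at least 3.15-fold lower in EGFP-Positive cells. Its exact two-sided permutation p was 0.1, the smallest that 3 libraries against 3 allow, and without a filter its adjusted p was 0.063 (edgeR; 0.212 with the replicate block). Without single libraries the limit for *Sox10* was 2.09-fold to 3.70-fold. *Sox8*, which acts beside *Sox10* in glia, had 2, 5 and 0 tags in EGFP-Negative and 0, 3 and 1 tags in EGFP-Positive libraries, so the groups overlapped near the floor and a difference was not resolved. *Sox9*, a factor of many mesenchymal and progenitor cells, had 39, 45 and 18 tags in EGFP-Negative and 104, 82 and 36 tags in EGFP-Positive libraries. In each group *Sox9* was lowest in replicate 3, and within each replicate number the EGFP-Positive library was higher, although the groups overlapped. Its log2 fold change was 1.28 (SE 0.364, adjusted p = 0.0213 in edgeR and 1.62e-05 with the block), 1 of the 321 genes (3.44% of those tested) called higher. That call was lost in DESeq2 (adjusted p = 0.218) and without EGFP-Negative replicate 3, EGFP-Positive replicate 1 or EGFP-Positive replicate 2 (adjusted p of 0.11, 0.138 and 0.0773 in edgeR).

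*Gfra3* encodes the co-receptor for artemin, a ligand of the GDNF family, which passes the signal on through the receptor tyrosine kinase RET. *Gfra3* had 2, 1 and 1 tags in EGFP-Negative libraries and 0 tags in each EGFP-Positive library. No library exceeded the floor, and the pooled 4 tags put the level at only at least 1.26-fold lower in EGFP-Positive cells, so a difference was not resolved at this depth. Without any 1 of the 6 libraries *Gfra3* gave no limit above 1-fold. *Ret* had 1 tag in all 6 libraries together. Of the 8 genes of the GDNF family of ligands and receptors in the files, 3 were tested, 1 was called lower and none was called higher, against 6.37% and 3.44% of all tested genes. The ligand *Gdnf* had 21, 24 and 15 tags in EGFP-Negative and 23, 44 and 37 tags in EGFP-Positive libraries. Its highest EGFP-Negative library exceeded its lowest EGFP-Positive library in raw tags (24 against 23) but not in normalized CPM (22.1 against 23.9). The log2 fold change of *Gdnf*, 0.94 (SE 0.311, adjusted p = 0.0485 in edgeR), stayed under the fold threshold. Without EGFP-Positive replicate 1 *Gdnf* was called higher (log2 fold change 1.14, adjusted p = 0.0236 in edgeR), whereas without any other single library its adjusted p was 0.0593 to 0.228, and in DESeq2 it was 0.104. *Artn*, which encodes artemin itself, had 7, 7 and 14 tags in EGFP-Negative and 11, 20 and 15 tags in EGFP-Positive libraries and did not pass the test (log2 fold change 0.87, SE 0.401, adjusted p = 0.168 in edgeR). The gene called lower was *Gfra1*, the co-receptor for GDNF, with 25, 11 and 26 tags in EGFP-Negative and 2, 6 and 11 tags in EGFP-Positive libraries. For *Gfra1* EGFP-Negative replicate 2 equalled EGFP-Positive replicate 3, and its call (log2 fold change -1.53, SE 0.475, adjusted p = 0.0343 in edgeR) was lost in DESeq2 (adjusted p = 0.0629) and in edgeR without EGFP-Negative replicate 1 or 3 or without EGFP-Positive replicate 1 or 2 (adjusted p of 0.136, 0.0964, 0.137 and 0.0942). Without EGFP-Positive replicate 3 the log2 fold change of *Gfra1* was -2.13 (adjusted p = 0.0113 in edgeR).

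*S100b* encodes a calcium-binding protein that is the common histological marker of enteric glia. It had 3, 9 and 4 tags in EGFP-Negative replicates 1, 2 and 3 and 0 tags in each EGFP-Positive library. EGFP-Negative replicate 2 was highest, but its 95% Poisson interval of 4.12 to 17.1 tags overlapped that of replicate 1, 0.619 to 8.77 tags. *S100b* was at least 5.03-fold lower in EGFP-Positive cells, and its adjusted p without a filter was 0.00547 in edgeR (0.0261 with the replicate block). The limit was 3.27-fold without EGFP-Negative replicate 2, which held 9 of the 16 tags. *Gfap* encodes the intermediate filament protein of astrocytes, enteric glia and non-myelinating Schwann cells, and its amount in glia is known to vary with inflammation. *Gfap* had 22, 23 and 26 tags in EGFP-Negative and 1, 0 and 1 tags in EGFP-Positive replicates 1, 2 and 3. The 3 EGFP-Negative libraries were nearly equal and none came near the EGFP-Positive libraries. In normalized CPM, *Gfap* stood at 20.9 ± 0.325 in EGFP-Negative and 0.657 ± 0.572 in EGFP-Positive cells (SD, n = 3). The log2 fold change was -4.76 (SE 0.595, adjusted p = 1.48e-05 in edgeR, 9.77e-08 with the block). The pooled level in EGFP-Positive cells was 2.99% of that in EGFP-Negative cells (95% interval 0.355 to 11.2%). Over the alternatives in which *Gfap* could be fitted, the log2 fold change ranged from -5.14 to -4.25 and the adjusted p from 1.38e-12 to 0.000218. Because *Gfap* had 10 or more tags in EGFP-Negative libraries only, leaving out any of these removed it from the tested genes.

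*Cdh19* encodes an adhesion cadherin of the Schwann cell lineage. It had 24, 9 and 36 tags in EGFP-Negative and 2, 1 and 1 tags in EGFP-Positive replicates 1, 2 and 3. The groups did not overlap, and among EGFP-Negative libraries replicate 2 was low and replicate 3 high. *Cdh19* missed the 10-tag filter because of that low library. At 5 tags its log2 fold change was -3.80 (SE 0.629, adjusted p = 0.000218 in edgeR), and over its alternatives the adjusted p ranged from 8.79e-10 to 0.00257. *Cdh19* passed that filter through EGFP-Negative libraries alone, so these adjusted p describe the gene and lend no support to a difference. EGFP-Positive cells held 6.14% of the EGFP-Negative level (95% interval 1.63 to 16.5%). *L1cam*, a member of the immunoglobulin superfamily on axons and on non-myelinating glia, had 5, 4 and 4 tags in EGFP-Negative libraries and 0 tags in each EGFP-Positive library. The EGFP-Negative libraries were alike, and the pooled level was at least 4.09-fold lower in EGFP-Positive cells (2.71-fold to 4.38-fold without single libraries). Without a filter its adjusted p was 0.0192 in edgeR, and the call was lost with the replicate block (adjusted p = 0.0758). None of its relatives in the L1 family was called lower. *Chl1*, the close homolog of L1, had 163, 186 and 214 tags in EGFP-Negative and 430, 520 and 394 tags in EGFP-Positive libraries. All EGFP-Positive libraries were above all EGFP-Negative libraries, and the log2 fold change was 1.42 (SE 0.174, adjusted p = 1.17e-05 in edgeR). *Nfasc*, which encodes the neurofascin of nodes of Ranvier, did not pass the test (log2 fold change -0.43, SE 0.383, adjusted p = 0.53 in edgeR). *Nrcam* had 4, 0 and 7 tags in EGFP-Negative and 1, 1 and 0 tags in EGFP-Positive libraries, and the groups overlapped. Pooled, this was 19.3% of the EGFP-Negative level (95% interval 2.08 to 88.3%, and 13.0 to 34.2% without single libraries). Without a filter the adjusted p of *Nrcam* was 0.357 in edgeR (0.64 with the replicate block), so a difference was not resolved. Of the 4 genes of the family 2 were tested, 0 were called lower and 1 was called higher, where 6.37% and 3.44% of all tested genes were.

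*Kcna1* encodes the voltage-gated potassium channel subunit Kv1.1, found on peripheral axons and reported in satellite and Schwann cells. It had 15, 8 and 31 tags in EGFP-Negative and 0, 0 and 4 tags in EGFP-Positive replicates 1, 2 and 3. The groups did not overlap, but EGFP-Positive replicate 3, at 4 tags, came near EGFP-Negative replicate 2, at 8 tags, and all 4 EGFP-Positive tags lay in replicate 3. At 5 tags the log2 fold change was -3.45 (SE 0.748, adjusted p = 0.00279 in edgeR), with an adjusted p of 3.16e-07 to 0.0256 over its alternatives. *Kcna1* too passed that filter only through EGFP-Negative libraries, and its adjusted p lend no support to a difference. The pooled level in EGFP-Positive cells was 7.85% of that in EGFP-Negative cells (95% interval 2.07 to 21.3%). Leaving out single libraries gave 6.21 to 11.9%, and 0 EGFP-Positive tags without EGFP-Positive replicate 3. Of the 8 Kv1 channel genes and their β subunits in the files, 1 passed the 10-tag filter and was called lower (against 6.37% of all tested genes). This was *Kcna2*, with 40, 28 and 39 tags in EGFP-Negative and 21, 9 and 11 tags in EGFP-Positive libraries. Its log2 fold change was -1.21 (SE 0.339, adjusted p = 0.0191 in edgeR), and the call was lost without EGFP-Negative replicate 1 or without EGFP-Positive replicate 2 or 3 (adjusted p of 0.0814, 0.105 and 0.0746). *Kcna5* and *Kcna6* had 9 and 8 tags in the pooled EGFP-Negative libraries and 0 tags in EGFP-Positive libraries, and *Kcna4* had 0 tags in EGFP-Negative and 4 tags in EGFP-Positive libraries. The β subunit gene *Kcnab1* had 2, 9 and 17 tags in EGFP-Negative and 1, 2 and 0 tags in EGFP-Positive libraries, and the groups overlapped.

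*Fabp7* encodes the brain lipid-binding protein, a fatty acid carrier of glial progenitors and of enteric glia. It had 0, 2 and 0 tags in EGFP-Negative libraries and 0 tags in each EGFP-Positive library. With 2 tags in all, the gene was at or under the floor in both groups, and no fold is given. The other carriers of the family with tags, *Fabp3*, *Fabp4* and *Fabp5*, are genes of muscle, of fat and endothelium, and of many cell types. Of the 4 family members in the files 2 were tested, 2 were called lower (against 6.37% of all tested genes) and none was called higher. Both reached 10 tags only in EGFP-Negative libraries and so passed the filter only through the group in which they were high. *Fabp4* had 136, 56 and 29 tags in EGFP-Negative and 8, 7 and 3 tags in EGFP-Positive replicates 1, 2 and 3, a log2 fold difference of -3.46 (SE 0.554, adjusted p = 0.000206 in edgeR). In each group the third replicate was lowest, and without EGFP-Negative replicate 1, which held 136 of the 221 EGFP-Negative tags, the log2 fold change of *Fabp4* was -2.62. For *Fabp5*, with 24, 16 and 11 tags against 2, 0 and 2, the log2 fold change was -3.42 (SE 0.651, adjusted p = 0.00108 in edgeR). Its count is uncertain, because 29.8% of the windows of 50 nt within the first 300 nt of its annotated transcripts also occur in transcripts of 5 related loci.

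**Figure D1:**
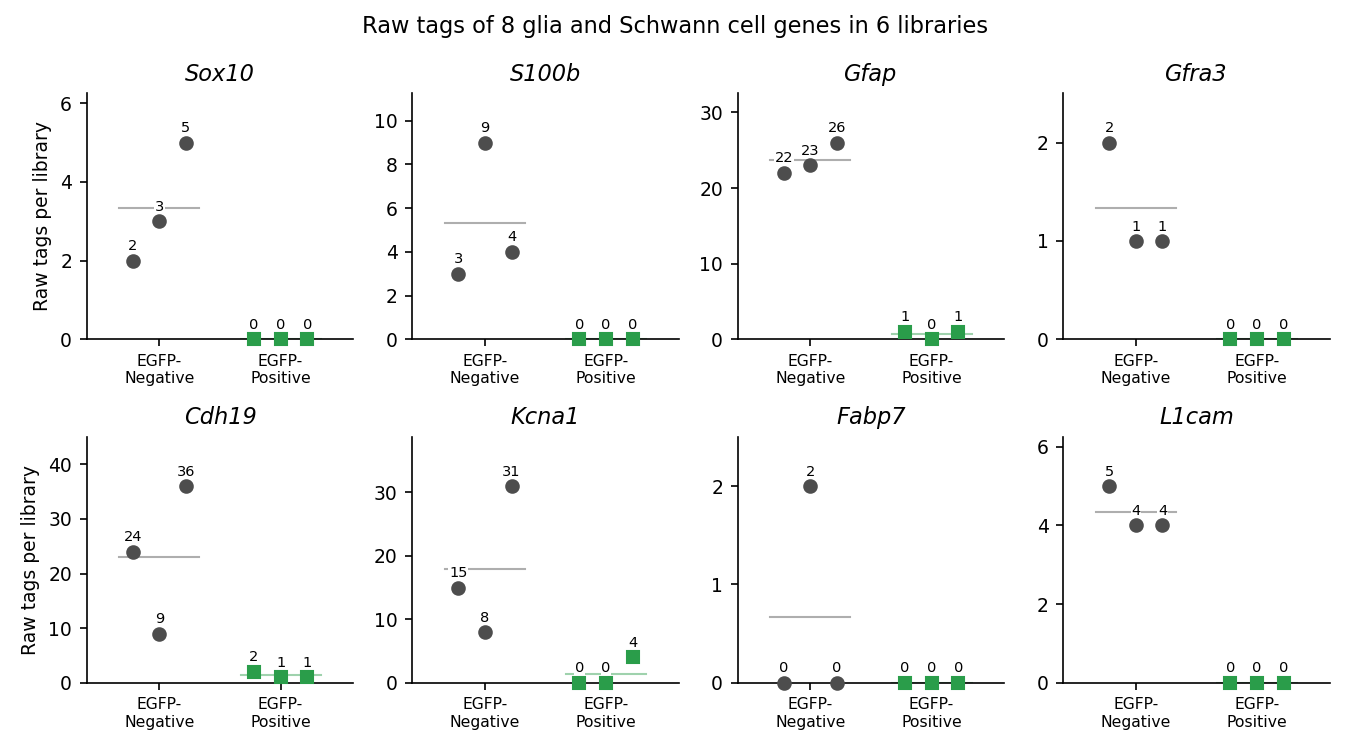
Raw tags per library (vertical axis, a separate linear scale for each gene) of the 8 genes in 3 EGFP-Negative libraries (grey circles) and 3 EGFP-Positive libraries (green squares), in the order of replicates 1, 2 and 3, with a line at the mean of each group. The groups overlap only for *Fabp7*, with 0, 2 and 0 tags in EGFP-Negative libraries; *Gfap* is nearly level in EGFP-Negative libraries, whereas *Cdh19* runs from 9 to 36 and *Kcna1* from 8 to 31 tags.

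Among the EGFP-Negative libraries, *Cdh19* and *Kcna1* were lowest in replicate 2 and highest in replicate 3. For *Cdh19* the 95% Poisson interval was 3.82 to 15.8 CPM in replicate 2 and 21.6 to 42.6 CPM in replicate 3, which do not overlap. For *Kcna1* the intervals were 3.2 to 14.6 CPM and 18 to 37.6 CPM in the same libraries. *Gfap* stood at 20.8, 21.3 and 22.2 CPM in replicates 1, 2 and 3, and whether its spread differed from theirs was not tested. *S100b*, with 3, 9 and 4 tags, was highest in replicate 2. *Lgi4*, a secreted Schwann cell protein outside the 8 genes, was also lowest in replicate 2 (22.3 CPM against 46.4 in replicate 1 and 42.7 in replicate 3). *Mbp*, at 11.4, 11.1 and 16.2 CPM in replicates 1, 2 and 3, was nearly level between replicates 1 and 2. Markers of the interstitial cells of Cajal, the pacemaker cells of gut muscle, had the same low library. *Kit* stood at 59.6, 31.5 and 59 CPM and *Ano1* at 144, 86.3 and 168 CPM in EGFP-Negative replicates 1, 2 and 3. In EGFP-Positive replicate 3, which held all *Kcna1* tags of its group, *Kit* had 7 of its 7 tags and *Ano1* 15 of its 16 tags. The part of these cells in the *Kcna1* and *Cdh19* values was not tested.

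A wider list of glia and Schwann cell genes was counted in the same way. Of its 25 genes, 22 were in the files, 10 passed the 10-tag filter, 5 were called lower (against 6.37% of all tested genes) and none was called higher in EGFP-Positive cells, with a median log2 fold change of -1.10 over the 10 genes and of -0.01 over all 9334 tested genes. *Mbp*, *Cnp*, *Cadm4* and *Lgi4*, which are 4 of the 5 called genes, reached 10 tags only in EGFP-Negative libraries, so they passed the filter only through the group in which they were high, and the counts and the median are a description that supports no difference. For 9 of the 22 genes every EGFP-Negative library lay above every EGFP-Positive library, against 11.3% of all symbols. In EGFP-Positive cells 7 genes had 0 tags, and the share of all symbols with 0 tags there was not counted. Among them, *Sox2*, *Foxd3*, *Pmp2* and *Gldn* had only 1 or 2 tags in EGFP-Negative cells, so their 0 shows no difference. The summed tags of the list were 1069, 1048 and 1103 in EGFP-Negative and 584, 522 and 586 in EGFP-Positive libraries, so that 55.7% of the level was left (95% interval 52.5 to 59.1%). *Pmp22*, *Scn7a*, *Ednrb* and *Ncam1*, which are also transcribed in other cells, made up most of these tags. *Pmp22* was the most abundant, with 1466 tags in all.

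*Erbb3*, the neuregulin receptor on which Schwann cells depend, had 3, 2 and 10 tags in EGFP-Negative libraries and 0 tags in EGFP-Positive libraries, at least 4.72-fold lower. Of the 15 *Erbb3* tags, 10 lay in EGFP-Negative replicate 3, without which the limit was 2.43-fold. *Gpr37l1*, a receptor of glia, had 3, 5 and 6 tags against 0 in each EGFP-Positive library, at least 4.40-fold lower (adjusted p = 0.0131 without a filter in edgeR, 0.0539 with the block; a limit of 2.92-fold to 5.09-fold without single libraries). The groups did not overlap for either gene. *Foxd3* and *Sox2*, transcription factors of glial progenitors, had 2 and 1 tags in all, and *Ngfr*, the low-affinity neurotrophin receptor, had 0, 3 and 3 tags in EGFP-Negative and 2, 3 and 2 tags in EGFP-Positive libraries.

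Among genes of myelin, *Mbp* and *Cnp* were called lower in EGFP-Positive cells. *Mbp*, the myelin basic protein gene, had 12, 12 and 19 tags in EGFP-Negative and 2, 2 and 4 tags in EGFP-Positive replicates 1, 2 and 3, a log2 fold difference of -2.21 (SE 0.5, adjusted p = 0.0044 in edgeR). *Cnp*, an enzyme of non-compact myelin, had 18, 16 and 24 tags against 1, 7 and 6, a log2 fold difference of -1.86 (SE 0.468, adjusted p = 0.00956 in edgeR). Neither gene overlapped between the groups. *Mag* and *Pmp2* had at most 1 tag in any library, and *Mal* had 2, 2 and 3 tags in EGFP-Negative and 0 tags in EGFP-Positive libraries. *Pmp22*, which fibroblasts also transcribe, had 272, 341 and 372 tags against 151, 136 and 194. Its groups did not overlap, but its log2 fold change of -0.87 (SE 0.171, adjusted p = 0.00135 in edgeR) was under the fold threshold. *Prx*, the periaxin gene, had 15, 5 and 7 tags in EGFP-Negative and 10, 2 and 10 tags in EGFP-Positive libraries and did not pass the test (log2 fold change -0.14, SE 0.558, adjusted p = 0.911 in edgeR).

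Among genes of the contact between glia and axon, *Lgi4* had 49, 24 and 50 tags in EGFP-Negative and 4, 5 and 9 tags in EGFP-Positive replicates 1, 2 and 3. Its groups did not overlap, and its log2 fold change was -2.59 (SE 0.389, adjusted p = 0.00011 in edgeR). *Cadm4*, a Schwann cell adhesion protein that binds axonal nectin-like proteins, had 15, 10 and 12 tags against 1, 0 and 6, with most EGFP-Positive tags in replicate 3. Its log2 fold change was -2.20 (SE 0.648, adjusted p = 0.0261 in edgeR), and this call was lost without EGFP-Positive replicate 1 or 2 (adjusted p of 0.0912 and 0.0883) and, on the genes of the 6-library filter, also without EGFP-Negative replicate 1 or 2 (0.104 and 0.054). Without EGFP-Positive replicate 3 the log2 fold change of *Cadm4* was -4.14 (adjusted p = 0.00142 in edgeR). *Scn7a*, a sodium channel gene of glia that is also transcribed in fibroblasts, had 338, 280 and 345 tags against 111, 101 and 133, well apart, and the log2 fold change was -1.32 (SE 0.169, adjusted p = 1.86e-05 in edgeR). *Ncam1* had 116, 140 and 100 tags in EGFP-Negative and 127, 153 and 75 tags in EGFP-Positive libraries. The *Ncam1* groups overlapped (log2 fold change 0.15, SE 0.241, adjusted p = 0.748 in edgeR).

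Signals that glia receive were measured in the same libraries. Neuregulin 1 acts through ERBB3 and ERBB2 on Schwann cells, and endothelin 3 acts through EDNRB on neural crest cells of the gut. Of 6 genes in this list, 2 were tested, 0 were called lower and 1 was called higher, against 6.37% and 3.44% of all tested genes. *Nrg1* had 251, 193 and 159 tags in EGFP-Negative and 1822, 1532 and 1328 tags in EGFP-Positive replicates 1, 2 and 3. Every EGFP-Positive library was far above the EGFP-Negative libraries, and the log2 fold change was 3.11 (SE 0.228, adjusted p = 4.59e-08 in edgeR). *Edn3* had 9, 6 and 12 tags against 0, 2 and 2 and passed only the 5-tag filter, through EGFP-Negative libraries alone (log2 fold change -2.48, SE 0.698, adjusted p = 0.0197 in edgeR). That call was lost in DESeq2 (adjusted p = 0.0813) and in edgeR without EGFP-Negative replicate 1 or 3 or EGFP-Positive replicate 1 (adjusted p of 0.0561, 0.0718 and 0.0781). *Ednrb* had 199, 183 and 126 tags in EGFP-Negative and 159, 96 and 136 tags in EGFP-Positive libraries, overlapping (log2 fold change -0.23, SE 0.226, adjusted p = 0.568 in edgeR). *Erbb2* had 9, 5 and 9 tags against 6, 7 and 9 tags.

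Markers of other cells that the gate can hold also differed between the groups. Of 13 enteric neuron genes, 11 were in the files and summed to 39, 32 and 49 tags in EGFP-Negative and 13, 8 and 25 tags in EGFP-Positive libraries. The only one tested was also the most abundant and was called lower (against 6.37% of all tested genes): *Stmn2*, with 25, 15 and 21 tags against 5, 2 and 13. Its log2 fold change was -1.44 (SE 0.47, adjusted p = 0.0443 in edgeR), a call lost in DESeq2 (adjusted p = 0.0823) and in edgeR without any of the libraries other than EGFP-Positive replicate 3 (adjusted p of 0.0605 to 0.19). Without that library it was -2.30 (adjusted p = 0.00493 in edgeR). *Uchl1* had 1, 4 and 10 tags in EGFP-Negative and 0 tags in EGFP-Positive libraries, and *Elavl3* had 1, 2 and 1 tags against 1, 0 and 0. *Elavl4* and *Snap25* each had 0 tags in EGFP-Negative libraries and 1 tag in EGFP-Positive replicate 1, and *Chat* had 0, 0 and 1 tags against 2, 1 and 1. The part of neurons in the glial values was not tested.

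Most muscle and pacemaker cell genes examined were lower in EGFP-Positive cells as well. Of 10 pericyte and smooth muscle genes, all were tested, 8 were called lower (against 6.37% of all tested genes) and none higher, with 4766, 4957 and 6310 tags in EGFP-Negative and 960, 900 and 1024 tags in EGFP-Positive libraries. The most abundant was *Rgs5*, with 1951, 1700 and 1800 tags against 186, 174 and 206 (log2 fold change -3.11, SE 0.18, adjusted p = 8e-09 in edgeR). Within EGFP-Positive libraries, *Myh11* (18, 18 and 84 tags), *Acta2* (23, 36 and 93), *Tagln* (24, 46 and 86) and *Actg2* (7, 10 and 26) were highest in replicate 3. That library also held all *Kcna1* tags of its group. Without it the pooled share of *Myh11* went from 4.07% to 1.84% of the EGFP-Negative level, and that of *Acta2* from 6.8% to 3.98%. *Des* and *Cspg4* were highest in EGFP-Positive replicate 2 instead. The 2 genes not called, the pericyte potassium channel genes *Kcnj8* and *Abcc9*, had more tags in EGFP-Positive cells: *Kcnj8* had 145, 115 and 100 tags against 213, 191 and 125, and *Abcc9* had 325, 275 and 267 tags against 469, 391 and 373. Their adjusted p in edgeR were 0.0394 and 0.0167, but their log2 fold changes of 0.713 and 0.665 were under the fold threshold. The interstitial cell genes *Kit* and *Ano1* were both called lower. *Kit* and, among the 8 called pericyte and smooth muscle genes, *Notch3* (69, 57 and 67 tags against 4, 0 and 7) passed the filter only through EGFP-Negative libraries. *Kit* had 63, 34 and 69 tags against 0, 0 and 7, a log2 fold difference of -4.34 (SE 0.566, adjusted p = 2.33e-05 in edgeR), and *Ano1*, the more abundant, had 152, 93 and 196 tags against 1, 0 and 15, a log2 fold difference of -4.59 (SE 0.479, adjusted p = 1.9e-06 in edgeR). The *Kit* and *Ano1* tags left in EGFP-Positive cells were 4.02% of the level in EGFP-Negative cells (95% interval 2.53 to 6.08%), but 22 of the 23 tags lay in EGFP-Positive replicate 3, without which the share was 0.263%, *Kit* had 0 EGFP-Positive tags and the log2 fold change of *Ano1* was -7.69. Of 8 fibroblast genes, all were tested, none was called lower and 2 were called higher (against 3.44% of all tested genes), and their summed tags, led by *Dcn*, were 21912, 22019 and 28691 against 38753, 32364 and 30991. *Lum*, of the same list, went the other way without a call, with 1072, 1296 and 2153 tags against 681, 902 and 992. Its log2 fold change of -0.635 (adjusted p = 0.0378 in edgeR) was under the fold threshold. So were those of *Thy1* and *Dcn*, which were higher in EGFP-Positive cells (0.883 and 0.669, adjusted p of 0.00832 and 0.0462 in edgeR). The part of these cell types in the glial values was not tested.

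Genes of immune, endothelial, epithelial and mesothelial cells gave few tags, and those of red blood cells gave more. Of 6 immune genes, 1 was tested and called lower (against 6.37% of all tested genes), and the list had 21, 39 and 27 tags in EGFP-Negative and 11, 9 and 10 tags in EGFP-Positive libraries, led by *Cd74*, with *Ptprc*, the CD45 gene, at 1, 2 and 7 against 0, 3 and 0. The *Cd74* call (adjusted p = 0.0468 in edgeR) was lost at 5 tags (adjusted p = 0.051), in DESeq2 (0.0977) and without most single libraries (up to 0.237), and its log2 fold change moved from -1.50 to -2.26 without EGFP-Positive replicate 3. Of 5 endothelial genes 4 were in the files and 0 were tested, with 11, 10 and 14 tags against 0, 3 and 4, led by *Plvap*, and with *Pecam1*, the CD31 gene, at 1 tag in all. *Pecam1* and *Lyve1* had 0 tags in EGFP-Positive libraries. Of 5 epithelial genes 4 were in the files and 0 were tested, with 3, 0 and 14 tags against 0, 0 and 4, led by *Krt8*, and with *Epcam* at 2 tags in all. The 4 mesothelial genes, 0 of them tested, had 14, 5 and 19 tags against 0, 0 and 2, led by *Wt1*, with *Msln* and *Upk3b* at 0 in EGFP-Positive libraries. *Hbb-bs*, *Hbb-bt* and *Hba-a1*, genes of red blood cells, had 81, 0 and 284 tags against 12, 2 and 15. Their split is uncertain, because *Hbb-bs* and *Hbb-bt* share 63.2% and 55% of their windows of 50 nt near the 5′ ends with each other, and *Hba-a1* shares 67.9% with *Hba-a2*. As deposited, *Hbb-bs* had the most tags of the 3. None of these 3 passed the 10-tag filter. At 5 tags *Plvap*, *Wt1* and *Hbb-bs* were called lower (adjusted p of 0.0491, 0.0228 and 0.0132 in edgeR), against 6.24% of all tested genes. *Plvap* and *Wt1* passed that filter through EGFP-Negative libraries alone. With no filter 0 endothelial, 0 epithelial, 2 mesothelial and 3 red blood cell genes were called lower, against 3.77% of all symbols. EGFP-Negative replicate 3, the library with most glial tags, thus held most tags of red blood cells too, whereas replicate 2, with 59 glial tags, held 0. The part of these cells in the glial values was not tested.

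Over the 6 libraries, the tested genes whose log2 normalized CPM followed the summed level of the 8 genes most closely were *Penk*, *Tmem229a*, *Mus81*, *Gas1*, *Rgs4*, *Ccdc28b*, *Cacna1h*, *Chrdl1*, *C2cd5* and *Slc4a8* (Pearson r of 0.992 to 0.998 over n = 6 libraries). The libraries form 2 groups, so a high r mostly reflects the gap between them. *Penk*, which encodes the precursor of enkephalin peptides, had 137, 133 and 183 tags in EGFP-Negative and 45, 37 and 66 tags in EGFP-Positive replicates 1, 2 and 3. In each group replicate 3 was highest and replicate 2 lowest, as for the summed glial tags. *Penk* was picked for following that summed level, so the shared order is no separate result. *Rgs4*, a regulator of G-protein signalling, had 157, 145 and 224 tags against 12, 6 and 13, and *Slc4a8*, a bicarbonate transporter gene, had 38, 27 and 49 tags against 1, 0 and 1. The log2 fold changes of the 10 genes ran from -5.44 for *Slc4a8* to -0.63 for *C2cd5*, but because the genes were picked for following a level that is high in EGFP-Negative libraries, that direction was fixed by the choice and is no result.

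The 8 genes lie on 7 chromosomes of the mouse genome (GRCm38), with *S100b* and *Fabp7* both on chromosome 10. *Gfap* spans 102887336 to 102900912 on the minus strand of chromosome 11, and its principal transcript has 9 exons. *S100b* spans 76253853 to 76261159 on the plus strand of chromosome 10 with 3 exons, *Cdh19* spans 110888326 to 110977584 on the minus strand of chromosome 1 with 12 exons, and *Sox10* spans 79154908 to 79165240 on the minus strand of chromosome 15 with 5 exons. *Kcna1* spans 126640397 to 126646384 on the minus strand of chromosome 6, with 2 exons. *L1cam* lies at 73853778 to 73896105 on the minus strand of chromosome X and overlaps *Arhgap4* on the same strand, with which it shares 2.05% of the windows of 50 nt near its 5′ ends. *Arhgap4* had 2 tags in all 6 libraries. No such window of the other 7 genes occurs in the transcripts of another gene. *Gfap* overlaps *Gm26668* and *L1cam* overlaps *Avpr2* on the opposite strand, and *Cdh19* overlaps *Gm38255* and *Gm36944* on its own strand. *S100b* overlaps *Dip2a* on the opposite strand, and the tags were mapped in 1 orientation only. *Dip2a* had 11, 15 and 14 tags in EGFP-Negative and 10, 15 and 12 tags in EGFP-Positive libraries, so it did not share the 0 counts of *S100b*.

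SOX10 and its relatives bind short sequences around the letters CAA. RefSeq promoter windows (GRCm38.p6) were matched for 4 of the 8 genes, *Gfap*, *S100b*, *L1cam* and *Fabp7*, and the 250 bases before the start of each were searched on both strands for a motif of 7 letters: 2 that are each A or T, then CAA, then A or T, then G, which gives 8 forms. Only the *Gfap* window held any, 2 matches on the strand of the gene. Of all 32851 promoter windows of this length, 21.8% held at least 1 match, and a match describes letters and not a bound site. The windows of *Gfap* and *S100b*, the filament and calcium-binding genes most used to stain enteric glia, are shown 5′ to 3′ on the strand of the gene, with matches in capitals. The *Gfap* window (chr11:102897201-102897450, minus strand) lies inside the annotated gene but in no exon, and the *S100b* window (chr10:76253586-76253835, plus strand) lies just before the gene.
Gfap: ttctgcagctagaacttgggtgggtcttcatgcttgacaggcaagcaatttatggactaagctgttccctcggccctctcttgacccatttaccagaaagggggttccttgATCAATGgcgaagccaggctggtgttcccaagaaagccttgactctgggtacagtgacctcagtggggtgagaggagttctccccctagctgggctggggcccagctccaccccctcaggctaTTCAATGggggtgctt
S100b: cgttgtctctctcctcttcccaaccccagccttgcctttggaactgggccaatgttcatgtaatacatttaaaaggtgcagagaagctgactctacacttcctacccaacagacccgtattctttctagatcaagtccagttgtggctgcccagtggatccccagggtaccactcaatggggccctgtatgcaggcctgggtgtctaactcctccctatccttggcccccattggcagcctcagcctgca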

How the data were processed

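RNA of EGFP-Negative and EGFP-Positive colon cells (n = 3 libraries each) was measured by 5′Tag-seq. The authors trimmed reads, mapped them to mm10 RefSeq RNA in 1 orientation and deposited the tag counts per gene symbol without normalization. The submitters' processing notes name cutadapt 1.18, Bowtie2 2.2.5 and R 3.5.1. How tags that map to several genes were counted is not given in the sources used here.

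In R 4.3.3, edgeR 4.0.16 was run on the genes that reached 10 tags in 3 or more libraries (TMM, glmQLFit and glmQLFTest, Benjamini-Hochberg adjustment over all tested genes). The methods print this filter as excluding genes with 10 or more tags, which was read as keeping them. Normalized CPM are CPM after TMM scaling. SEs were taken from the log2 fold change and its F statistic. Pooled percentages have exact binomial intervals at 95%, and single counts exact Poisson intervals. The fit was tested on simulated data.

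The methods give 3 mice for both populations. Libraries were paired by the replicate number in their labels, which do not state that the same number means the same mouse, and every value with the replicate block rests on that reading. For 5064 genes that averaged 30 tags or more, what remained after subtracting each group's mean correlated within these pairs (r of 0.23, 0.21 and 0.27; genes are not independent replicates), and the replicate number was used as a block in an alternative. Other alternatives were RLE or library size in place of TMM, iterative TMM (3 rounds, adjusted p of 0.1, at least 5% of genes left out), DESeq2 1.42.0, 5 tags in place of 10, no filter, each library left out, and the adjusted p alone. Fits on the genes of the 6-library filter without 1 library, filters combined with the block, all alternatives on the 5-tag filter, and pooled percentages and fold limits without each library were chosen after seeing the data.

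Genes named were the 8 genes, members of the marker lists, *Il11*, and the 10 tested genes with the highest Pearson r with the summed normalized CPM of the 8 genes, on log2 values with 1 added. *Arhgap4*, *Dip2a*, *Gm26668*, *Avpr2*, *Gm38255* and *Gm36944* were named for their overlap with 1 of the 8 genes, and *Hba-a2* for the sequence it shares with *Hba-a1*. A few genes of the starting lists were left out of list sizes and counts alike, so the list counts describe only the genes kept. The 8 genes and the lists were chosen with earlier results of these data known. *Gjb1*, *Cldn19*, *Ugt8a*, *Vip*, *Syt1*, *Pspn*, *Kcna3*, *Kcna7*, *Fabp1*, *Fabp2*, *Cdh5* and *Cdh1* stand in the list sizes only and were not analysed here. Positions and transcripts came from GENCODE mouse release M21 (GRCm38).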

Additional observations from a re-analysis of the deposited data

How the results depend on the processing

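The number of the 8 genes called lower was 1 (*Gfap*) under RLE scaling, library size only, iterative TMM, DESeq2, the adjusted p alone and the replicate block, 3 at 5 tags with or without the block, 5 with no filter and 4 with no filter and the block. It ranged from 0 to 1 when single libraries were left out, being 0 without EGFP-Negative replicate 1, 2 or 3, since fewer genes then pass the filter, and 1 in every fit on the genes of the 6-library filter. Of the wider glia and Schwann cell list 5 genes were called lower in edgeR and with the replicate block, and 1 to 5 with a library left out (1 without any EGFP-Negative library with the filter remade, 4 or 5 on the genes of the 6-library filter). Over all tested genes the block gave 648 lower and 337 higher calls, fits without 1 library gave 341 to 580 lower and 251 to 329 higher calls, and the adjusted p alone gave 812 lower and 638 higher calls. At 10 and at 5 tags the block changed no call among the 8 genes and the wider list, and with no filter it ended those of *L1cam* and *Gpr37l1*. The fits on the 6-library filter, the filters joined with the block and the alternatives at 5 tags were chosen after seeing the data. Without 1 library the log2 fold change ranged from -0.46 to 0.48 for *Prx*, -0.068 to 0.43 for *Ncam1*, -0.85 to 0.099 for *Tubb3*, -0.77 to 0.33 for *Gfra2* and -0.086 to 0.28 for *Erbb2*. Each includes both signs and none of these genes was called in any fit; the cause was not tested. Depth limits *Gfra3* and *Fabp7*, with 4 and 2 tags in all, for which no difference could be resolved, and *Sox10*, for which only a fold limit against the floor can be given. Counts of 0 in EGFP-Positive cells were given a limit of 0.962 CPM per gene, the floor of 3 tags over the pooled libraries.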
